A study of Mus musculus with 9 samples.

Results

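Genes of the platelet-derived growth factor (PDGF) and insulin-like growth factor (IGF) axis were examined for peaks of 2 chromatin remodeling proteins in smooth muscle cells of the mouse oviduct. The 10 members were the receptors *Pdgfra*, *Pdgfrb*, *Igf1r* and *Igf2r*, the ligands *Pdgfa*, *Pdgfb*, *Igf1* and *Igf2*, and the binding proteins *Igfbp3* and *Igfbp5*, out of 21755 protein-coding genes on the autosomes and X. Each member was given a window of its gene body (GENCODE M21, mm10) with 20 kb on either side, and every listed peak that overlapped a window was taken, whatever its height. The 10 windows covered 1014 kb in all and held 65 of the 83005 regions that resulted when overlapping peaks of the 6 replicate lists were merged. Regions with a summit at most 2 kb from an annotated start of the member itself were called promoter and all others distal, which gave 13 promoter and 52 distal regions.

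The cells were primary oviductal smooth muscle cells of WT mice aged 8 to 12 weeks on day 2 of pregnancy, kept in dishes for a few hours and fixed with formaldehyde for 5 min. Chromatin immunocleavage sequencing (ChIC-seq), in which an antibody brings micrococcal nuclease to its target and the released fragments are sequenced, was done with antibodies against PBRM1 and BRG1, with 3 replicates each. The labels also list 3 IgG samples, which were not analysed here, and do not say whether replicates came from separate mice, so every test below measures the spread between these libraries, which may be technical. The experiment was meant to find where these proteins bind. BRG1 is the motor subunit of SWI/SNF remodelers, and PBRM1 (BAF180) marks their PBAF form. Peak lists hold only what passed the peak caller, so a gene without a listed peak is not shown to be unbound.

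PDGF ligands are dimers that bring together the receptor tyrosine kinases PDGFRα and PDGFRβ, and they are known as growth and migration signals for mesenchymal cells, including vascular smooth muscle cells and pericytes. IGF1 and IGF2 signal through the tyrosine kinase IGF1R, whereas IGF2R takes IGF2 to lysosomes and the IGF binding proteins hold the ligands outside the cell. *Igf2* and *Igf2r* are imprinted in the mouse, and *Airn*, a long RNA that starts inside *Igf2r* and runs antisense to it, is needed to silence the paternal copy of *Igf2r*.

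The sequences below are GRCm38, plus strand, and hold the summit of the pooled BRG1 peak with 50 bases on either side. They show the distal regions whose PBRM1 and BRG1 signals differed least (*Pdgfb*) and most (*Igf1r* intron, which was also the strongest distal region), and also, chosen after their values were seen, the region upstream of *Pdgfa* and the one upstream of *Igf1r* that only BRG1 lists held. Capitals mark matches, on either strand, to the AP-1 letters TGANTCA or the ETS letters CCGGAA.
Pdgfb upstream, chr15:80024518-80024618: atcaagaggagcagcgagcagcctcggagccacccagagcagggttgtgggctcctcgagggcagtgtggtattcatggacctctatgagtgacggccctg
Igf1r intron, chr7:68021721-68021821: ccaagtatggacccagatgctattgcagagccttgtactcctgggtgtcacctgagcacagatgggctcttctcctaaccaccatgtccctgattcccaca
Pdgfa upstream, chr5:139015215-139015315: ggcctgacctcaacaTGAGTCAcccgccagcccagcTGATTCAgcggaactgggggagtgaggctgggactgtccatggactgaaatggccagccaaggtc
Igf1r upstream, chr7:67951180-67951280: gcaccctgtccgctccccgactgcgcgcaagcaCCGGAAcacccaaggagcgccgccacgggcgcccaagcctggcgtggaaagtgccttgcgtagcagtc

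The first question was which members carried a peak at their own promoters. None of the 10 members had an own-promoter peak in all 6 lists, against 41.8% of protein-coding genes. None had one in all 3 PBRM1 lists, against 44.2% of protein-coding genes, and 2 had one in all 3 BRG1 lists, *Igf1* and *Igf1r*, against 50% of protein-coding genes. At the other end, 3 members, *Pdgfa*, *Igf2* and *Igfbp5*, had no own-promoter peak in any replicate list, near the 34.3% of all genes. The remaining 7 members stood between, with a promoter peak in 1 to 5 of the 6 lists, as had 23.9% of protein-coding genes. Peaks counted in this way for a gene, here and below, could lie at separate sites near its starts. The counts depended on single libraries, although leaving a library out asks for fewer lists, so a count could then only stay or rise. Without BRG1 replicate 2, 5 members had a promoter peak in every remaining BRG1 list, and without PBRM1 replicate 2 or 3 the PBRM1 count was 1. At −log10 q of at least 5 the BRG1 count was 0, and with promoters narrowed to 1 kb it was 1, since the *Igf1r* region lay outside. The shares of protein-coding genes under these altered rules are not given here.

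**Figure D1:**
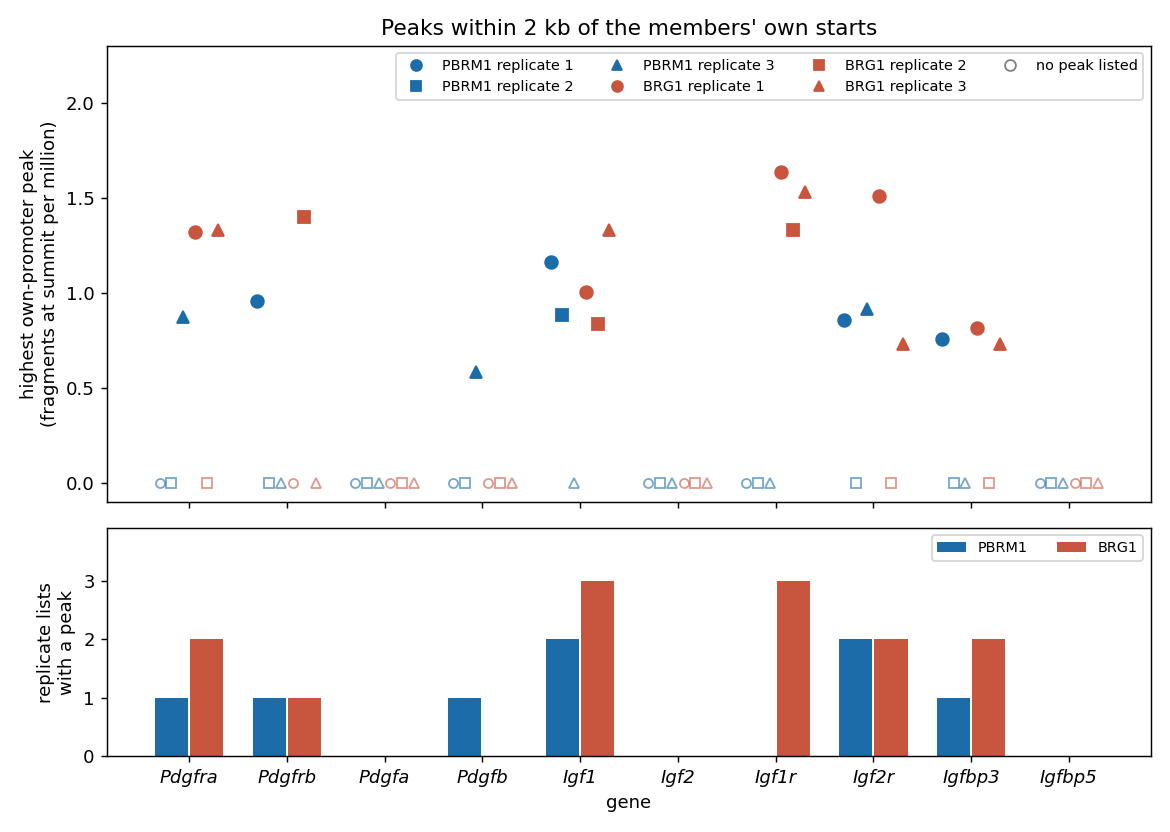
Own-promoter peaks of the 10 members. The upper panel plots the highest peak of each library within 2 kb of the gene's starts, in fragments at the summit per 1000000 fragments of the library (FPM), with open symbols at 0 where no peak was listed. The lower panel counts the replicate lists with a peak for each antibody. *Igf1* and *Igf1r* reach 3 BRG1 lists, and no member reaches 3 PBRM1 lists.

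Of the PDGF receptors, *Pdgfra* had a promoter peak in 3 of 6 libraries and *Pdgfrb* in 2. At *Pdgfra*, one region (chr5:75156222-75156678) lay 285 bp upstream of an internal start and 4.26 kb inside the gene. Its pileup, given as FPM (fragments over the summit per 1000000 fragments of the library), was 0.875 FPM in PBRM1 replicate 3, 1.32 in BRG1 replicate 1 and 1.33 in BRG1 replicate 3, and no peak was listed in the other three libraries. A start of the noncoding gene Gm42803 also lay within 2 kb, so the peak cannot be given to *Pdgfra* alone. At the *Pdgfrb* start, in its first exon, PBRM1 replicate 1 had 0.960 and BRG1 replicate 2 had 1.40 FPM. The pooled lists, called by the authors on 3 replicates together, placed 3 PBRM1 and 4 BRG1 peaks within 2 kb of the *Pdgfrb* starts, of which 1 of each antibody overlapped a peak of its replicate lists.

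Away from promoters the receptors again differed from each other. The best supported *Pdgfrb* region, in an intron 26.7 kb from the 5′ end, was in 5 lists, with 0.758, 1.05 and 0.792 FPM in PBRM1 replicates 1 to 3 and 0.980 and 0.931 in BRG1 replicates 2 and 3. The PBRM1 and BRG1 values of that region overlapped. *Pdgfra* had only 3 regions in its 85.9 kb window, and its best one, 9.14 kb upstream of the 5′ end, was in 2 lists of each antibody, between 0.584 and 0.998 FPM.

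In the replicate lists the PDGF ligands were marked upstream of the gene rather than at the start. *Pdgfb* had a region in all 6 lists 9.58 kb upstream of its 5′ end, in an intron of the noncoding gene Gm41361, with 1.41, 1.05 and 1.50 FPM for PBRM1 and 1.45, 1.12 and 1.26 for BRG1. The PBRM1 and BRG1 values interleaved, and replicate 2 was the lowest library for both antibodies. *Pdgfa* had one in all 6 lists 17.9 kb upstream, intergenic, with 0.909, 1.16 and 0.875 FPM for PBRM1 and 0.944, 1.19 and 1.06 for BRG1. This site was nearer to the 3′ end of the neighboring gene *Prkar1b* than to the *Pdgfa* promoter, so the window rule does not show which gene it belongs to. The only replicate peak at a PDGF ligand promoter was at *Pdgfb*, 0.584 FPM in PBRM1 replicate 3.

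*Igf1*, which encodes the ligand of IGF1R, had the best supported promoter of the 10. The region (chr10:87860017-87860789) lay 252 bp downstream of the start of one *Igf1* transcript and 2.02 kb from the gene's 5′ end, in an exon annotated as a 5′ UTR. It had 1.16 and 0.883 FPM in PBRM1 replicates 1 and 2, none listed in PBRM1 replicate 3, and 1.01, 0.840 and 1.33 in the 3 BRG1 libraries, so the antibodies overlapped. A second *Igf1* region, in an intron 21.7 kb from the 5′ end (chr10:87879697-87880845), was in all 6 lists. It had 0.909, 1.05 and 1.08 FPM for PBRM1 and 1.13, 1.19 and 1.13 for BRG1. The summits of the 6 libraries in it spread over 727 bp, the widest spread of the 7 six-list regions, so it need not be a single site. *Igf2*, the other ligand, had no region at all in its 56.1 kb window in any replicate list, as did 18.7% of protein-coding windows. The pooled BRG1 list held 2 distal peaks near *Igf2*, of 0.288 and 0.310 FPM, and neither overlapped a peak of a replicate list.

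*Igf1r*, the receptor that carries most IGF signaling, had 20 regions in its 321 kb window, the most of the members. Per 100 kb of window, however, its 6.23 regions were close to the members' median of 6.25. The median over the windows of all protein-coding genes was 4.87 per 100 kb, and this difference was not tested. The replicate peaks listed on the promoter side of the gene differed between the antibodies. A region 1.60 kb upstream of the start (chr7:67950992-67951369) was in all 3 BRG1 lists, with 1.57, 1.33 and 1.53 FPM and summits within 16 bp of each other, and in no PBRM1 list. The pooled PBRM1 list, which rested on more fragments than the pooled BRG1 list, had no peak there either. The pooled PBRM1 peaks on either side of it lay 2573 bp upstream of the start, with 0.743 FPM and a fold enrichment over local background of 2.27, and 386 bp from the start, with 0.905 FPM and an enrichment of 2.55-fold. The pooled BRG1 peak at 1.60 kb upstream had 1.46 FPM and a fold enrichment of 3.29. Since a list gives no value below its threshold, the size of this difference was not tested.

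Within *Igf1r* introns, 3 regions were in all 6 lists, at 68.9, 132.6 and 176.5 kb from the start. The one at 68.9 kb (chr7:68021483-68022254) was the highest distal region of the members by mean pileup, with 1.77, 1.77 and 1.21 FPM for PBRM1 and 2.89, 2.45 and 2.06 for BRG1. All 3 BRG1 libraries were above all 3 PBRM1 libraries. The one at 132.6 kb (chr7:68085276-68085623) had 0.909, 0.993 and 0.625 FPM for PBRM1 and 0.818, 1.54 and 1.46 for BRG1, and BRG1 replicate 1 lay among the PBRM1 values. The one at 176.5 kb (chr7:68129054-68129470) had 1.77, 1.82 and 1.21 for PBRM1 and 1.76, 1.82 and 1.46 for BRG1, and the groups overlapped. A further 2 *Igf1r* intron regions, at 20.6 and 118.0 kb, were in 5 lists.

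**Figure D2:**
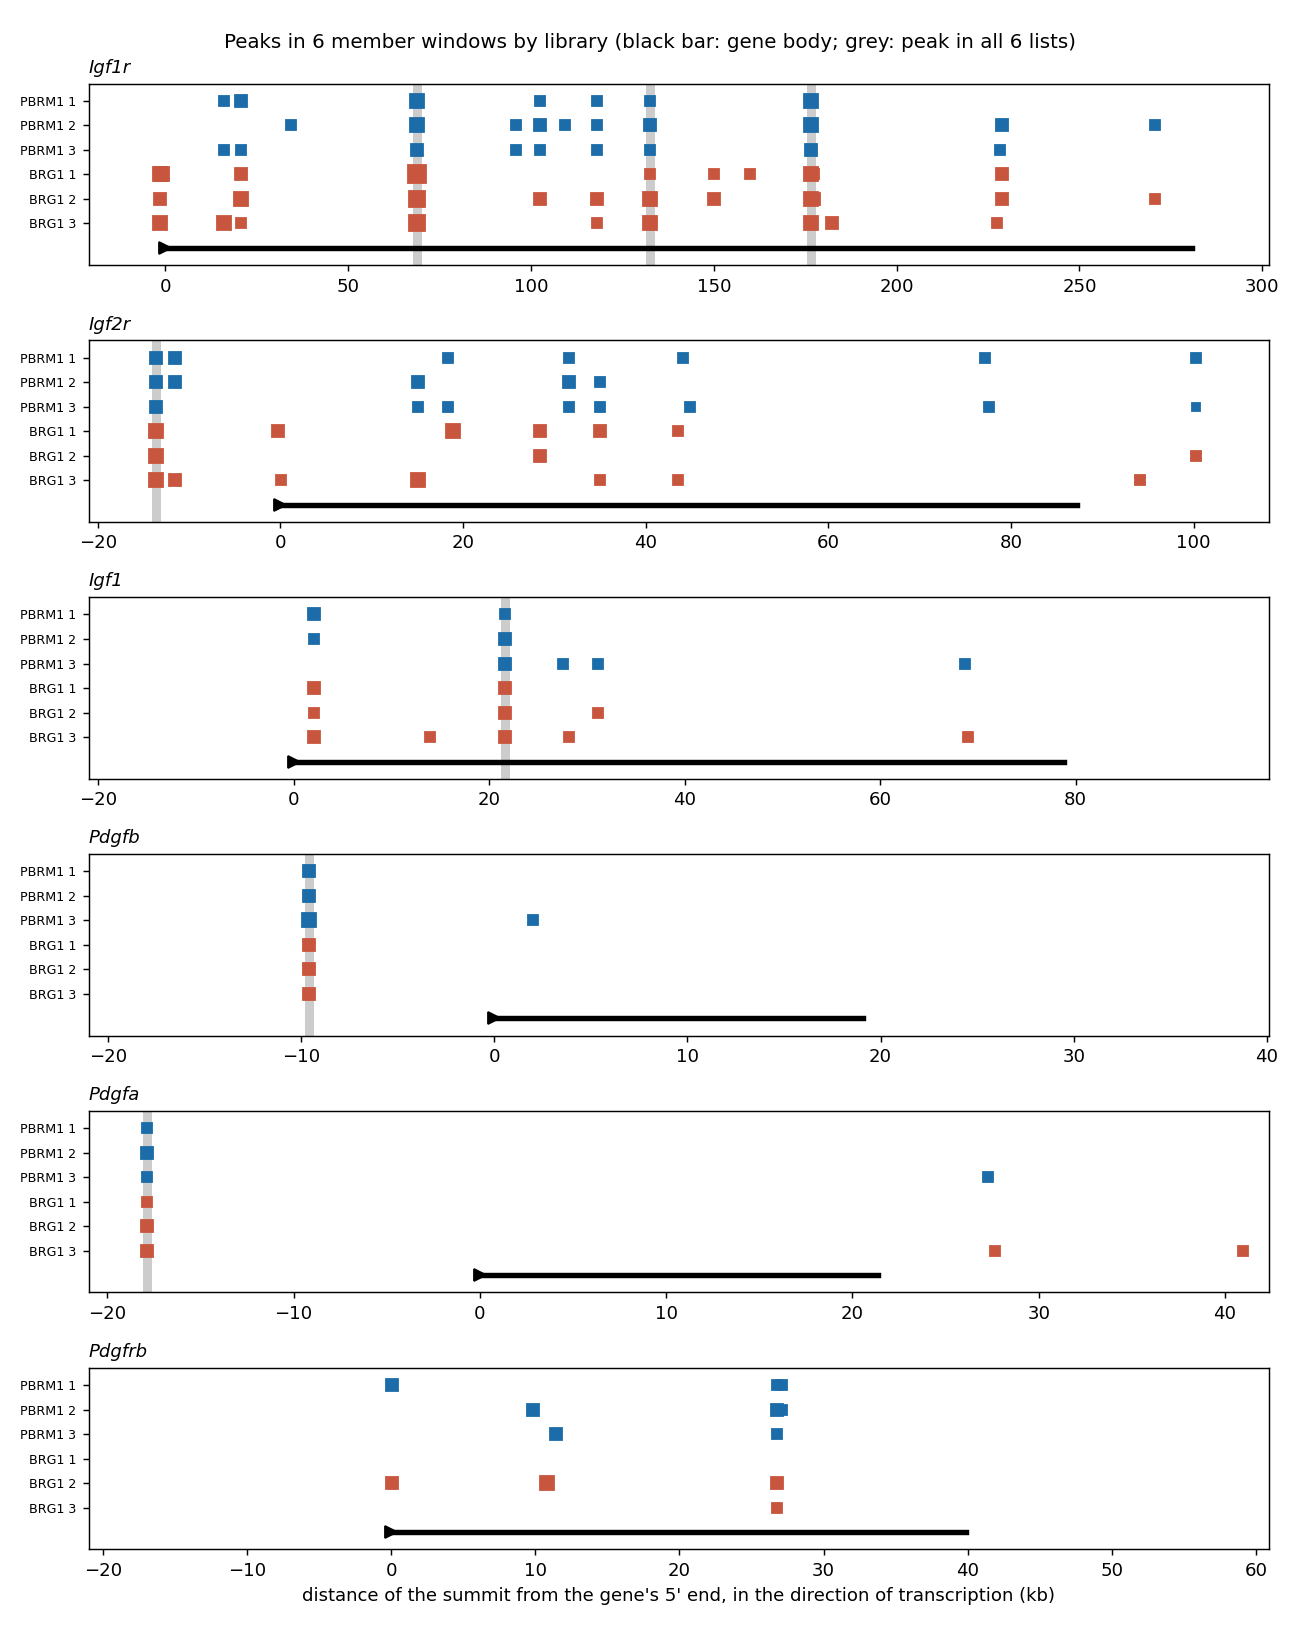
Peaks of the 6 libraries in the windows of *Igf1r*, *Igf2r*, *Igf1*, *Pdgfb*, *Pdgfa* and *Pdgfrb*. The horizontal axis is the distance from the gene's 5′ end in kb, each square is a peak (larger squares have more FPM), the black bar is the gene body, and grey bands mark regions with a peak in all 6 lists. The 7 grey bands all lie more than 9 kb from the 5′ end.

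*Igf2r*, which clears IGF2, had the densest window, 17 regions or 13.4 per 100 kb. Its promoter peaks were scattered over 4 regions, none in more than 2 lists. At the 5′ end BRG1 replicate 3 had 0.732 and BRG1 replicate 1 had 1.01 FPM, in separate regions. At a second annotated start, 18.9 kb into the gene, BRG1 replicate 1 had 1.51, while PBRM1 replicates 1 and 3 had 0.859 and 0.917 at 464 bp from that start. The replicate lists of the antibodies also differed around the *Airn* start, which lies within *Igf2r*, though the pooled lists did not. A region centred 50 bp from the *Airn* start was in BRG1 replicates 1 and 2, with 1.13 and 0.980 FPM, and in no PBRM1 list. A region 3.25 kb upstream of the *Airn* start (chr17:12737962-12738367) was in all 3 PBRM1 lists, with 0.909, 0.993 and 0.750, and in no BRG1 list. Both pooled lists held a peak at both sites, PBRM1 with 0.743 FPM at the *Airn* start and 0.808 upstream of it, and BRG1 with 1.15 and 0.929. The upstream site and the region upstream of *Igf1r* were the only 2 of the 65 regions in all 3 replicate lists of one antibody and none of the other. The share of such regions among all 83005 is not given here, so whether 2 of 65 is unusual was not tested. The six-list region of the window, 13.6 kb upstream of *Igf2r* (chr17:12782626-12783606), lay in *Airn* introns, with 1.31, 1.21 and 1.42 FPM for PBRM1 and 1.64, 1.75 and 1.60 for BRG1, every BRG1 library being the higher.

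The binding proteins carried little that repeated. *Igfbp3*, the main IGF carrier in blood, had 3 regions, all promoter and each in a single list, between 0.732 and 0.818 FPM. *Igfbp5* had 2, both in its first kilobases but beyond the 2 kb limit. The region 3.00 kb from the nearest start was in all 3 BRG1 lists, at 1.20, 1.33 and 1.26 FPM, and in PBRM1 replicate 2 at 0.883. The other, 2.39 kb from that start, was in PBRM1 replicates 2 and 3 and BRG1 replicate 2.

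Of the 65 regions, 25 were in lists of both antibodies, 18 in PBRM1 lists alone and 22 in BRG1 lists alone. The same split over all regions is not given here, so whether the members differ in it was not tested. All 7 regions with a peak in all 6 lists were distal, and no promoter region reached more than 5 lists. They made up 10.8% of the members' regions, against 15.5% of all regions, and single-list regions made up 47.7% against 47.0%. Of the members, 5 had no six-list region (*Pdgfra*, *Pdgfrb*, *Igf2*, *Igfbp3* and *Igfbp5*), as had 40.9% of protein-coding windows. At −log10 q of at least 5, only 1 six-list region remained in the windows.

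The pileups of the 7 six-list regions were then compared between antibodies with limma over all 12842 six-list regions. These values compare signals of 2 antibodies, so more bound protein and a better antibody cannot be told apart. Over all six-list regions the median log2 difference, PBRM1 minus BRG1, was −0.49, with 53% called higher in BRG1 and 0.428% higher in PBRM1. The median was −0.59 at promoters (8354 regions within 2 kb of any annotated start) and −0.27 away from them (4488 regions). Among the members' regions, 2 of 7 were higher in BRG1 and 0 were higher in PBRM1, with 0 higher in PBRM1 also at an unadjusted limma p under 0.05. All 7 are distal, and 22.5% of distal six-list regions were higher in BRG1, against 69.4% of promoter ones. In 3 of the 7, every BRG1 value exceeded every PBRM1 value, against 56.8% of all six-list regions, most of which are at promoters. The share among distal regions alone is not given here. The members' median log2 difference was −0.19, and 4 of the 7 lay above the median of distal regions.

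The *Igf1r* region at 68.9 kb was higher in BRG1, with a mean of 2.47 ± 0.42 FPM against 1.58 ± 0.32 for PBRM1 (SD, n = 3 each), a log2 difference of −0.65 (SE 0.19, limma adjusted p = 0.0032). The *Igf1r* region at 132.6 kb was also higher in BRG1, at 1.27 ± 0.40 against 0.843 ± 0.19 (SD, n = 3 each), a log2 difference of −0.57 (SE 0.23, limma adjusted p = 0.031), but the call was lost without PBRM1 replicate 3 (adjusted p = 0.22), BRG1 replicate 2 (0.18) or BRG1 replicate 3 (0.16). Relative to the genome median, these regions were shifted by −0.17 and −0.08. Most regions behind that median are at promoters, and both regions also lay below the distal median of −0.27. With each library centred on its own median, neither was called (limma adjusted p = 0.56 and 0.83), and the calls over all six-list regions became 293 higher in PBRM1 and 315 higher in BRG1. On the deposited fold enrichment neither was called either (limma adjusted p = 0.059 and 0.12).

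The other 5 regions did not pass the test. The *Igf2r* region had a log2 difference of −0.34 (limma adjusted p = 0.14), the *Igf1* intron −0.19 (0.46), the *Pdgfa* region −0.12 (0.64) and the *Igf1r* region at 176.5 kb −0.09 (0.70), and all 4 values were positive, between 0.13 and 0.38, when libraries were centred. The *Pdgfb* region had the highest difference, 0.04 (SE 0.21, limma adjusted p = 0.88), which stood 0.53 above the genome median. Centred, its difference was 0.51 (limma adjusted p = 0.12), the lowest adjusted p of the 7 on that scale. There, 2 of 7 had an unadjusted limma p under 0.05 and none was called. Distal regions in general also stood above the genome median, with a median of −0.27 against −0.49. The centred values were not compared with distal regions alone.

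**Figure D3:**
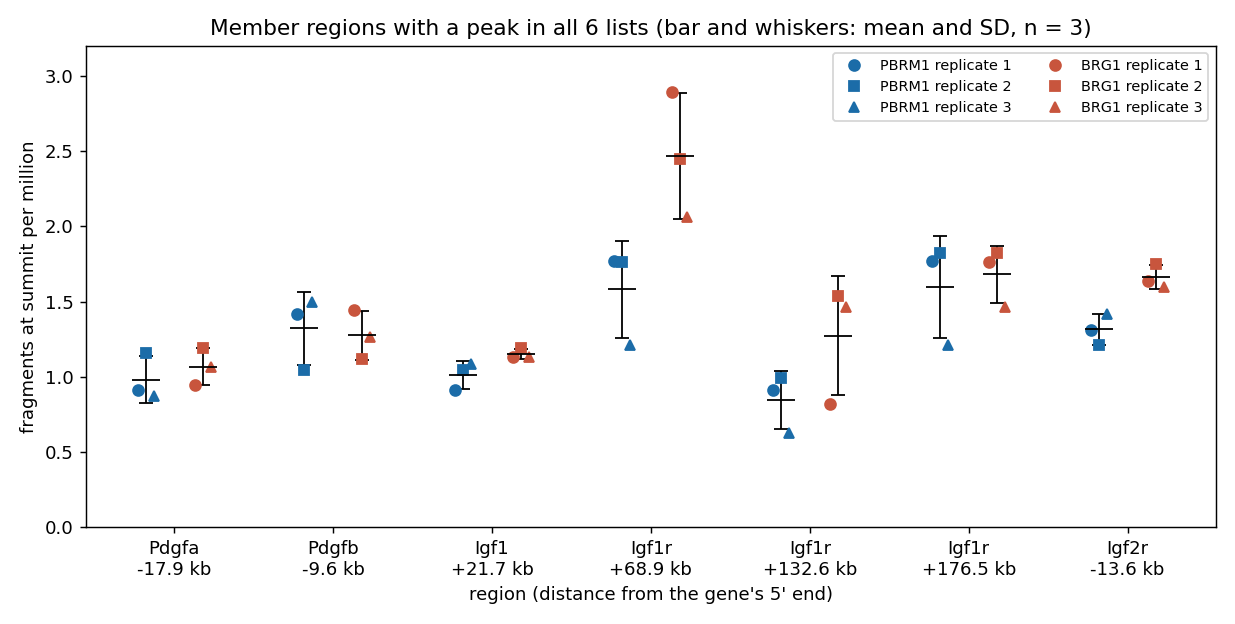
Pileup at the 7 member regions with a peak in all 6 lists, in FPM. Each symbol is a library, and bars with whiskers are the mean and SD of 3 replicates. At *Igf1r* +68.9 kb the BRG1 libraries (2.06 to 2.89) sit above the PBRM1 libraries (1.21 to 1.77), and at *Pdgfb* the groups overlap.

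**Figure D4:**
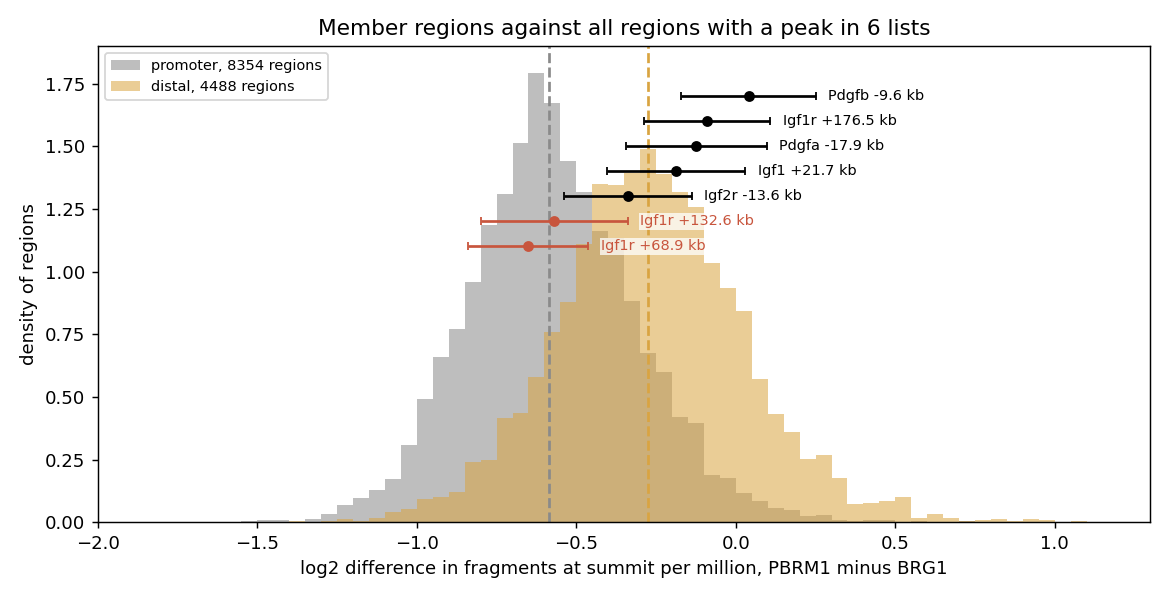
Log2 difference, PBRM1 minus BRG1, of the 7 member regions (points with SE) over the distribution of all six-list regions at promoters (grey) and away from them (yellow), with dashed lines at the medians of −0.59 and −0.27. The 2 regions called higher in BRG1, both in *Igf1r*, are in red.

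The number of peaks in the windows was similar for both antibodies. The PBRM1 lists held 23, 24 and 30 peaks in the 10 windows and the BRG1 lists 26, 25 and 31. Per 1000000 fragments, PBRM1 had 1.25 ± 0.081 and BRG1 1.82 ± 0.22 (SD, n = 3 each), and every BRG1 library was higher, with an exact permutation p = 0.1, the smallest that 3 against 3 allows (two-sided). The whole lists moved the same way, with 1756 ± 175 PBRM1 and 2479 ± 12.0 BRG1 peaks per 1000000 fragments (SD, n = 3 each), and the windows' share of a list was 0.0715% ± 0.0100 for PBRM1 and 0.0732% ± 0.0087 for BRG1. Promoter peaks made up 10.5% ± 6.63 of the PBRM1 and 18.4% ± 7.71 of the BRG1 peaks in the windows (SD, n = 3 each, exact permutation p = 0.3, two-sided). The PBRM1 and BRG1 shares overlapped.

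The pooled lists showed signal at more of the members' promoters than the replicates did. An own-promoter peak was listed for 8 of 10 members with PBRM1 and 8 of 10 with BRG1, against 66.0% and 67.8% of protein-coding genes. Of the 18 pooled PBRM1 promoter peaks of the members none overlapped a peak in all 3 replicate lists, against 38.4% of pooled promoter peaks in general, and of the 18 pooled BRG1 ones 2 did, against 43.9%. *Pdgfa*, without a replicate peak at its promoter, had pooled peaks of both antibodies near its 5′ end, 219 bp away with 1.03 FPM for PBRM1 and 213 bp away with 1.33 for BRG1. The pileup of the members' pooled promoter peaks was no lower than usual, with medians of 0.759 for PBRM1 and 1.06 for BRG1 against 0.711 and 0.973 at all promoters. Their fold enrichment over local background was lower, with medians of 2.79 and 2.85 against 3.55 and 4.07. At distal sites the members' pooled peaks were backed by all 3 lists about as often as others, 13.9% against 12.9% for PBRM1 and 12.8% against 11.6% for BRG1. These shares were not tested.

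Base composition was read from the 300 bases around starts of protein-coding genes (250 upstream and 50 downstream) and is given as a single ratio per gene. In a gene with several starts, the ratio need not be that of the start with the peak. A CpG-rich start, with an observed over expected CpG ratio of at least 0.6, was found in 7 of the 10 members and in 57.1% of protein-coding genes. Among all genes with such a start, 65.0% had a promoter peak in all 6 lists and 7.23% had none, whereas of the 7 CpG-rich members none was in all 6 lists and *Pdgfa* and *Igf2* were in none. The ratio was 1.22 at *Igf1r*, 0.968 at *Igfbp3*, 0.940 at *Pdgfra*, 0.924 at *Pdgfa* and 0.902 at *Igf2r*. *Pdgfrb* was the lowest at 0.306, and *Igf1*, whose promoter was in the most lists, was below the limit at 0.570.

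Motifs were sought on both strands within 50 bases of the pooled BRG1 summits of six-list regions. The AP-1 letters TGANTCA were in 1 of the 7 member windows, that of *Pdgfa* printed above, and in 7.30% of distal windows. The *Pdgfa* window held 2 such matches, and 0.670% of distal windows held 2 or more. The CCAAT letters were in 1 of 7, the *Igf1r* region at 176.5 kb, and in 9.89% of distal windows. The TEAD letters GGAATG (7.19% of distal windows), the GC box GGGCGG (7.55%), the ETS letters CCGGAA (2.32%) and the CArG box (0.357%) were in none of the 7. The window upstream of *Igf1r*, a promoter region, held 1 ETS match. Such a match was in 10.8% of the promoter windows of six-list regions, a set that does not include this BRG1-only region. A match is a description of letters and not a bound site.

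Other genes of the same pathways were read at their promoters. Of 34 such genes, 12 had an own-promoter peak in all 6 lists, against 41.8% of protein-coding genes, and 4 had none in any list: *Ins1*, *Igfbp1*, *Igfals* and *Pappa2*. By group, 3 of 4 PI3-kinase subunits and AKT kinases, 3 of 7 adaptors and 1 of 6 further binding proteins (*Igfbp6*) were in all 6 lists, and these counts were not tested. *Pdgfd*, which encodes another PDGF ligand, was in all 6 lists, and *Pdgfc* was in all 3 BRG1 lists and in no PBRM1 list. The insulin receptor gene *Insr*, the closest relative of *Igf1r*, had a promoter peak in all 6 lists, unlike *Igf1r*.

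*Igfbp6*, *Grb2* and *Akt2* had promoter peaks in all 6 lists but no merged six-list region there, so they were not tested. Of the 9 pathway genes with a six-list region at their promoter, 5 were higher in BRG1 by limma and 1 was higher in PBRM1, beside the 69.4% of promoter regions higher in BRG1. *Pik3r1*, the regulatory subunit of PI3-kinase, had 1.99 against 1.14 FPM (log2 difference −0.81, limma adjusted p = 6.4e-04). The adaptor *Shc1* (−0.67), *Insr* (−0.66), the protease *Htra1* (−0.65) and *Stc1* (−0.60), an inhibitor of the proteases that cut IGF binding proteins, were the others, and none of the 5 was called after centring. *Grb10*, an imprinted adaptor that restrains insulin and IGF1 receptors, was higher in PBRM1. It had 1.26, 1.27 and 1.04 FPM for PBRM1 and 0.881, 1.05 and 0.865 for BRG1, with a log2 difference of 0.52 (SE 0.22, limma adjusted p = 0.045) and of 0.98 after centring (0.0048). The call was lost on the deposited fold enrichment (log2 difference 0.21, limma adjusted p = 0.45) and without PBRM1 replicate 1 (0.12) or 2 (0.11) or BRG1 replicate 1 (0.28) or 3 (0.074).

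Promoter peaks at marker genes were counted to check the label of the cells, though a peak is not expression. Of 8 smooth muscle markers, *Acta2*, *Tagln*, *Smtn* and *Mylk* had one in all 6 lists, *Des* and *Myocd* in 4 lists, *Myh11* in 1 list and *Cnn1* in none, so 4 of 8 stood beside the 41.8% of all genes. *Vim*, of 5 fibroblast and mesenchyme markers, was in all 6 lists, *Col1a2* and *Thy1* were in 5, *Dcn* in 3 and *Col1a1* in 1. None of 7 epithelial markers was in more than 3 lists, and none of 3 leukocyte markers was in any. Of 3 endothelial markers *Kdr* was in 5 lists, *Pecam1* in 1 and *Cdh5* in none. A merged six-list region was at 4 marker promoters, and *Tagln* had none. Of the 4, *Smtn* alone passed the test between the antibodies. It was higher in BRG1 (log2 difference −0.47, limma adjusted p = 0.029), as were 69.4% of all promoter six-list regions. It was not called after centring (limma adjusted p = 0.99).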

How the data were processed

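ChIC-seq peak lists of 6 libraries (3 PBRM1, 3 BRG1) and of the 2 pooled sets were used as deposited. The labels name cutadapt, Bowtie2, MACS2 and build GRCm38.p5, and the settings of trimming and alignment were not given in the sources used here. Per the file headers, MACS 2.2.7.1 was run by the authors on paired-end fragments with no control, a q cutoff of 0.05 and a local background of 10 kb, so nuclease cutting that does not depend on the antibody is not removed. The deposited pileup is a signal, the fragment coverage at the summit, and it was divided here by the library's total of 14284532 to 23992352 fragments. The deposited fold enrichment is a ratio to local background, and the deposited −log10 q was used as a threshold only.

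Python 3.11.15, pandas 2.3.3, pysam 0.24.0, R 4.3.3 and limma 3.58.1 were used. Peaks sharing at least 1 bp were merged. Log2 pileup per 1000000 fragments of regions with a peak in all 6 lists was fitted with limma (trend, Benjamini-Hochberg adjustment, threshold 0.05). The fit was first run on simulated data with 200 changed regions and a log2 change of 1. The outcome of that run is not given here, so it adds no support to the calls. Counts per library were compared by two-sided exact permutation. Genes and starts came from GENCODE M21 and sequence from GRCm38.p6; no peak lay past a chromosome end. Named were all members, each member's best promoter and distal region (most lists, then mean pileup), member regions past the threshold, and pathway genes past it or in no list. The members and lists were chosen with earlier results of these data known. Alternatives covered thresholds, windows, scaling, fold enrichment, the replicate number as a block and each library left out. Sequences of *Igf1* (a UTR) and *Pdgfrb* are not reported here. One gene of the pathway list is not reported here.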

Additional observations from a re-analysis of the deposited data

How the results depend on the processing

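Deviations of same-numbered PBRM1 and BRG1 libraries correlated at −3.6e-05, 0.0037 and −0.029 over six-list regions, so no pairing by number showed in these values. This does not settle whether same-numbered libraries share mice or a cell preparation. With the number as a replicate block, 51 regions were higher in PBRM1 and 6591 in BRG1, against 55 and 6803, the members' counts stayed 0 and 2, and peaks per 1000000 fragments and promoter share kept differences of −0.570 and −7.83 (exact sign-flip p = 0.25, the smallest for 3 pairs). At −log10 q of at least 5, no member had a promoter peak in all 3 BRG1 lists, 1 six-list region was left, which set the member median at −0.090, 0 member regions were called, and 15 regions were higher in PBRM1 over the genome. With promoters of 1 kb the BRG1 promoter count was 1. Centring each library gave 293 and 315 calls, 0 member calls, a member median of 0.28, and differences of 0.34 (*Pdgfa*), 0.28 (*Igf1*), 0.38 (*Igf1r* 176.5 kb) and 0.13 (*Igf2r*). Fold enrichment gave 29 and 1363 calls, 0 member calls, and differences of 0.23 (*Pdgfa*) and 0.15 (*Igf1r* 176.5 kb). Regions in at least 2 lists of each antibody gave 85 calls higher in PBRM1, and widened summits 33, with 1 member call. For these alternatives the cause was not tested. Leaving out each library gave 0 to 1 members with full PBRM1 and 2 to 5 with full BRG1 promoter support, 33 to 79 regions higher in PBRM1, 1 to 2 member calls for BRG1, and a member median from −0.27 to −0.15. Differences then ran from −0.061 to 0.20 at *Pdgfb*, −0.24 to 0.13 at the *Igf1* intron and −0.20 to 0.10 at *Igf1r* 176.5 kb. Peaks per 1000000 fragments and promoter share stayed lower in PBRM1 under every alternative run. Lists cut to an equal number of their strongest peaks left 0 and 2 members with full PBRM1 and BRG1 promoter support. The part of depth in the missing promoter peaks was not tested. The alternatives for *Grb10*, given with its values, were chosen after seeing the data.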

Other observations

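Values outside the comparisons above concern members whose regions lay near other genes. Of the 52 distal regions, 45 lay in introns, 2 in exons and 5 in no gene, and 3 lay within 2 kb of the start of another gene. The *H19* promoter, whose gene shares its imprinted control with *Igf2*, was in 1 list, PBRM1 replicate 1 at 0.505 FPM. The *Airn* promoter was in 2 lists, both BRG1. Of the genes for the IGF2 mRNA-binding proteins, *Igf2bp1* was in all 6 lists, *Igf2bp2* in 5 and *Igf2bp3* in 3. Of the insulin genes, *Ins2*, next to *Igf2*, had promoter peaks at 0.692, 0.700 and 0.466 FPM in the 3 BRG1 lists. No PBRM1 list held one. The 3 values were below the 0.840 of the lowest BRG1 peak at the *Igf1* promoter. These *Ins2* peaks lay outside the *Igf2* window, which held no region. Which annotated *Ins2* start they lay near is not given here. The *Irs2* promoter, an adaptor of both receptors, was in the 3 BRG1 lists at 2.14, 1.68 and 2.19 FPM and in PBRM1 replicate 1 at 1.06. For these genes no difference between the antibodies was tested.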
